A study of Caenorhabditis elegans with 12 samples.

Results

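Among the genes of Caenorhabditis elegans that still carry only a clone-style name, 70 had higher transcript levels 4 h after adults were moved from 23 °C to 17 °C than just before the move. A clone-style name joins the code of the cosmid or yeast artificial chromosome on which a gene was first sequenced with a number, as in C10C5.5. The genes were chosen from these arrays: the lowest of the 4 arrays at 4 h had to lie above the highest of the 4 arrays at 0 h, and the means had to differ by at least 0.5 log2 units. A probe set is the group of oligonucleotides that reads a transcript, and where a gene had several, the one with the highest signal averaged over the 12 arrays was used. They were 70 of the 6718 genes with a clone-style name, or 1.04%, and 112 of 10400 genes with another kind of name (1.08%) met the same thresholds, as did 1.06% of all 17118 genes. In the other direction, 54 clone-named genes (0.804%) were separated and at least 0.5 lower at 4 h, as were 0.683% of all genes.

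Total RNA came from whole, synchronized adults of the wild-type strain N2 Bristol, raised from embryos at 23 °C for 2.5 days. There were 4 arrays just before the move (0 h), 2 arrays at 1 h, 2 arrays at 2 h and 4 arrays at 4 h of 17 °C, and all groups share the strain, genotype and rearing. Without arrays of animals left at 23 °C over this time, effects of time, handling and temperature cannot be told apart. The labels do not say that replicates were separate cultures, and the spread between these samples may be technical.

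In the worm, a gene gets a name of letters and a number when a mutant, a protein family or a function is described, and a clone-style name marks a transcript that has not been through this step. Worm genes often lie in tandem runs of related copies, or in operons whose genes share a promoter, so neighbouring genes are a natural unit for looking at such transcripts. A clone-style name does not mean that nothing is known. The neighbouring genes C10C5.3, C10C5.4 and C10C5.5 encode proteins of the aminoacylase family, enzymes that free amino acids from their N-acylated forms. For the other genes no function is given here, which does not mean that none is known.

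Looked up by gene identifier in the WBcel235 gene table, all 70 genes were found, and 0 of them had another symbol there. The table lists 68 as protein-coding and 2, E02H9.12 and K09F6.4, as pseudogenes. They lay on all 6 chromosomes, with 16 each on IV and V, 13 on II, 10 on X, 8 on III and 7 on I. As a share of the measured clone-named genes this ranged from 0.738% on chromosome I to 1.49% on chromosome IV. For 13 genes the suffix of the probe set (11 with _s_at, 2 with _x_at) marks oligonucleotides that can also bind other transcripts.

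Levels are log2 signals per probe set. Arrays agreed closely (Pearson's r across probe sets 0.994 to 0.998), with medians of 5.50 to 5.57 and lower quartiles of 3.53 to 3.64. Signal over background was not assessed, and 2 of the 70 genes (F23F12.3 and C08G9.2) had 0 h means under the lower quartile of all values (3.59), so the size of their change is less certain. Replicates 1 and 2 stood apart for these genes: replicate 2 was above replicate 1 in 58 of 70 at 2 h, by a median of 0.30, and in 54 of 70 at 1 h, by a median of 0.17, while over all genes it was above in 49.3% at 2 h and 42.1% at 1 h. The medians and counts that lead the comparisons at 2 h are therefore also given from each 2 h array alone. Among markers of tissues and stages, 9 intestinal genes were measured, of which 7 lay above 0 at 4 h. In limma, 2 passed the threshold upward (pept-1, by 0.91 log2 units, adjusted p = 0.000127, and cpr-1, by 1.03, adjusted p = 0.0138) and 1 downward (vha-6, by -0.30, adjusted p = 0.0421), where 1.44% of all genes passed upward and 1.04% downward. Their summed log2 level was 72.2 to 74.0 in the 4 h arrays, against 70.3 to 71.1 in the 0 h arrays. Without pept-1 and cpr-1 it was 56.2 to 57.0 at 4 h, against 55.8 to 56.6 at 0 h, and the other 7 genes differed by -0.30 to 0.23. The lists for muscle, pharynx, neurons, hypodermis, oocyte and germline, and embryo held 0 genes past the limma threshold, and the sperm list held 1 (ssp-10, lower). In RNA of whole animals, a change in the number of cells of a type and a change in RNA per cell cannot be told apart, and the part of these intestinal genes' values in those of the 70 genes was not tested.

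The differences between 4 h and 0 h, which chose the genes and are given as a description, ran from 0.50 to 1.53 log2 units with a median of 0.71, against -0.01 over all genes. In all, 14 genes were at least 1 log2 unit higher and 29 at least 0.75. The gap between the lowest 4 h array and the highest 0 h array ran from 0.022 to 1.04, with a median of 0.33. Standard deviations within a time had medians of 0.179 at 4 h and 0.177 at 0 h. Just inside the minimum difference lay T19D12.4 (0.502), Y46D2A.2 (0.506) and Y51B9A.9 (0.509), and just outside lay K08D8.4 (0.496), C34F11.8 (0.496) and E02C12.8 (0.489), whose arrays were also separated. Of the 6718 clone-named genes, 294 were separated upward, where 4.58% of all 17118 genes were. Of the 294, 224 differed by less than the minimum. A further 7 clone-named genes differed by at least 0.5 but had overlapping arrays.

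**Figure D1:**
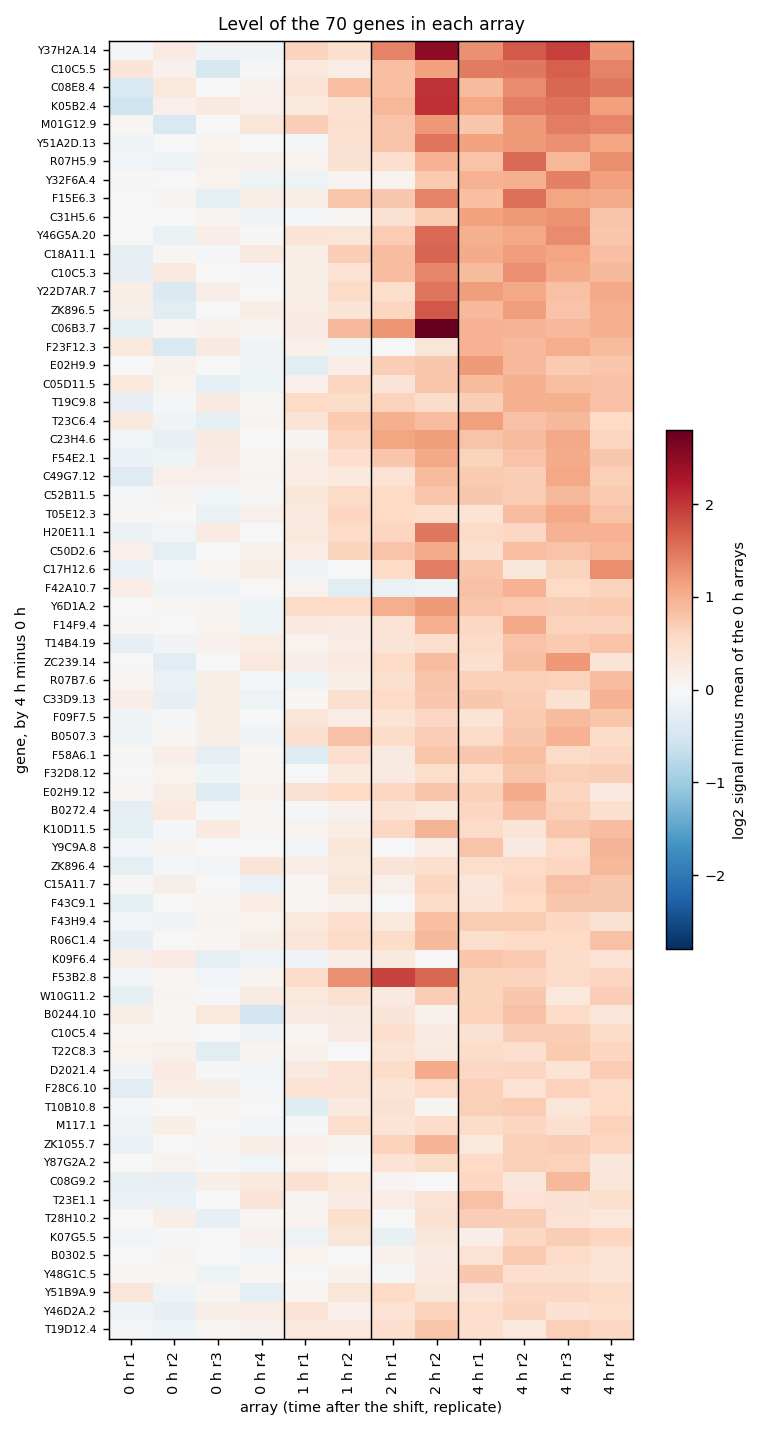
Log2 signal of each of the 70 genes (rows, from the largest to the smallest difference between 4 h and 0 h) in each of the 12 arrays (columns, by time after the shift and replicate, r), minus the gene's mean over the 0 h arrays. The 4 h columns are red throughout by the way the genes were chosen, whereas the 1 h and 2 h columns were not part of that comparison and deepen from 1 h to 2 h, where the highest single values lie in replicate 2.

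The largest difference was that of Y37H2A.14, at 1.53 log2 units (2.88-fold, SE 0.211). Its log2 signals were 6.43, 6.68, 6.37 and 6.37 at 0 h, 7.09 and 6.91 at 1 h, 7.85 and 8.97 at 2 h and 7.75, 8.18, 8.38 and 7.66 at 4 h. The highest value of this gene was an array of 2 h, and both 1 h arrays were already above all 0 h arrays. C10C5.5 followed with 2.83-fold (SE 0.142 on the log2 scale), and its values of 6.32, 6.09, 5.52 and 5.92 at 0 h, 6.27 and 6.17 at 1 h, 6.81 and 7.12 at 2 h and 7.41, 7.44, 7.63 and 7.36 at 4 h had a higher mean at each later time, with 1 h arrays inside the 0 h range and both 2 h arrays under all 4 h arrays. For C08E8.4 the signals were 4.70, 5.42, 5.10 and 5.24 at 0 h, 5.50 and 5.96 at 1 h, 5.96 and 7.13 at 2 h and 5.99, 6.43, 6.73 and 6.59 at 4 h, a difference at 4 h of 1.32. Its second probe set, with other oligonucleotides for the same gene, differed by 1.14.

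K05B2.4 had log2 signals of 3.43, 4.13, 4.24 and 4.13 at 0 h, 4.28 and 4.41 at 1 h, 4.91 and 6.03 at 2 h and 5.06, 5.41, 5.51 and 5.12 at 4 h. The 0 h array of replicate 1 was far below the other three, and the difference of 1.29 (SE 0.222) includes it. M01G12.9 had 5.42, 4.94, 5.38 and 5.71 at 0 h, 6.06 and 5.84 at 1 h, 6.16 and 6.57 at 2 h and 6.12, 6.54, 6.80 and 6.72 at 4 h. Y51A2D.13 had 7.46, 7.57, 7.67 and 7.59 at 0 h, 7.53 and 7.99 at 1 h, 8.37 and 9.07 at 2 h and 8.70, 8.77, 8.85 and 8.67 at 4 h. Both genes were separated at 2 h as well, but only M01G12.9 of the pair was at 1 h, where the replicates of Y51A2D.13 fell on either side of the highest 0 h array.

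R07H5.9, at 1.15 log2 units, spread most within 4 h among the genes named so far, with 4.80, 5.59, 4.93 and 5.31 at 4 h, against 3.92, 3.86, 4.13 and 4.12 at 0 h. Y32F6A.4 stood at 6.49, 6.44, 6.55 and 6.31 at 0 h, 6.32 and 6.53 at 1 h, 6.55 and 7.17 at 2 h and 7.43, 7.44, 7.85 and 7.59 at 4 h, so that most of its difference of 1.13 lay after 2 h. F15E6.3 had 9.60, 10.30, 9.86 and 9.79 at 4 h, against 8.75, 8.84, 8.49 and 8.94 at 0 h, a difference of 1.13 that its second probe set gave as 0.93. C31H5.6 had 7.43, 7.50, 7.56 and 7.09 at 4 h, against 6.31, 6.31, 6.39 and 6.20 at 0 h, and its 1 h arrays, at 6.26 and 6.33, were inside the 0 h range.

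The next genes by size were Y46G5A.20 (1.05), C18A11.1 (1.04), C10C5.3 (1.03), Y22D7AR.7 (1.03), ZK896.5 (0.97), C06B3.7 (0.96), F23F12.3 (0.95), E02H9.9 (0.90), C05D11.5 (0.88) and T19C9.8 (0.87), each as 4 h minus 0 h in log2 units. Their standard errors ran from 0.103 (T19C9.8) to 0.25 (C06B3.7). C18A11.1 had 7.71, 8.03, 7.92 and 8.21 at 0 h, 8.16 and 8.66 at 1 h, 8.83 and 9.60 at 2 h and 9.01, 9.13, 9.07 and 8.82 at 4 h, and the mean of its 2 h arrays was above that of its 4 h arrays. The 4 h arrays of C06B3.7 lay within a narrow band at 5.51, 5.48, 5.46 and 5.54, against 4.28, 4.60, 4.67 and 4.61 at 0 h, while its 2 h arrays, which enter the shared estimate of its spread, were at 5.77 and 7.32.

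The 1 h and 2 h arrays entered the choice of the genes only through the mean of 12 arrays that picked the probe set of a gene with several. Their differences from 0 h rest on 0 h arrays that chose the genes, so these are descriptions. The median difference from 0 h over the 70 genes was 0.26 at 1 h, 0.61 at 2 h and 0.71 at 4 h, against -0.01, -0.01 and -0.01 over all genes. At 1 h, 64 genes lay above their 0 h mean and 6 below. At 2 h, 69 lay above and 1, F42A10.7, below. The shares of all genes above their 0 h mean were not counted, and the rule favours genes with low 0 h arrays. Both 1 h arrays were above every 0 h array in 28 of the 70 genes, where 6.48% of all genes were. Both 2 h arrays were above every 0 h array in 56 of 70, where 10.0% of all genes were. Taken alone, replicate 2 at 2 h was above them in 65 genes and replicate 1 in 59, and the shares of all genes for a single array were not counted. The median at 2 h was 0.77 in replicate 2 alone and 0.47 in replicate 1 alone. Within replicate numbers 1 and 2, the medians from the 0 h array of the same number were 0.54 and 0.73 at 2 h, and 0.22 and 0.34 at 1 h.

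The step from 1 h to 2 h is the comparison of this design whose differences use neither the 4 h nor the 0 h arrays of the rule. No gene passed it: 0 of the 70, and 0 of all 22548 probe sets, had a limma adjusted p under 0.05. At an unadjusted limma p under 0.05, 29 of the 70 genes were higher at 2 h than at 1 h and 0 were lower. Of all genes, 3.29% were higher and 6.28% differed in either direction. These p-values take their spread partly from the 0 h and 4 h arrays, where the rule favours genes with a small spread. The 2 shares therefore cannot be compared free of the choice of genes. With the 4 arrays of 1 h and 2 h fitted alone, 28 of the 70 genes had an unadjusted limma p under 0.05. The lowest limma adjusted p of the 70 genes in that fit was 0.9995. The share of all genes in that fit was not counted, so the 28 cannot be set against a background. The median difference between 2 h and 1 h was 0.36 over the 70 genes, with a range of -0.33 to 1.43 and a median standard error of 0.185, against -0.00245 over all genes. It was above 0 in 63 of 70 genes, against 49.3% of all genes, and in 54 genes it was above 0 within both replicate numbers. The share of all genes above 0 within both numbers was not counted. Both 2 h arrays exceeded both 1 h arrays in 43 of 70 genes, where 15.9% of all genes did. Replicate 2 at 2 h alone exceeded both in 58 genes and replicate 1 alone in 48, and the shares of all genes for a single array were not counted. The 112 raised genes with other names had a similar course, with a median of 0.35 and with 66 genes whose 2 h arrays exceeded both 1 h arrays. The difference between the 2 sets was not tested. Without replicate 2 at 2 h the count at an unadjusted p under 0.05 was 15 (2.19% of all genes were higher at that threshold), the median difference 0.20 and the number of genes above 0 was 56, and without replicate 1 at 2 h they were 36 (4.57%), 0.47 and 65. Without replicate 1 at 1 h the count was 19 (4.11%).

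The smallest p-values of this step belonged to Y6D1A.2, Y51A2D.13 and Y37H2A.14. Y6D1A.2 had log2 signals of 8.77 and 8.97 at 2 h, against 8.31 and 8.30 at 1 h, a difference of 0.56 (SE 0.0998, limma adjusted p = 0.248). This probe set has the suffix _s_at. The gene's second probe set differed by 0.33 between 2 h and 1 h, and by 0.33 between 4 h and 0 h, under the minimum of the rule. Y51A2D.13 differed by 0.96 (SE 0.192, limma adjusted p = 0.287) and Y37H2A.14 by 1.41 (SE 0.298, limma adjusted p = 0.288). In all 3 genes both 2 h arrays lay above both 1 h arrays. Without replicate 1 at 2 h, 24 probe sets passed the limma threshold in all (0.14% of all genes), 5 of them among the 70 genes, C06B3.7 (adjusted p = 0.00621), Y37H2A.14 (0.0224), Y51A2D.13 (0.0224), ZK896.5 (0.0288) and Y46G5A.20 (0.0428). Without replicate 2 at 1 h, F53B2.8 was the 1 probe set that passed in limma (adjusted p = 0.0265, 0.00584% of all genes). In both fits the lone array of a time was assumed to vary like the other groups.

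**Figure D2:**
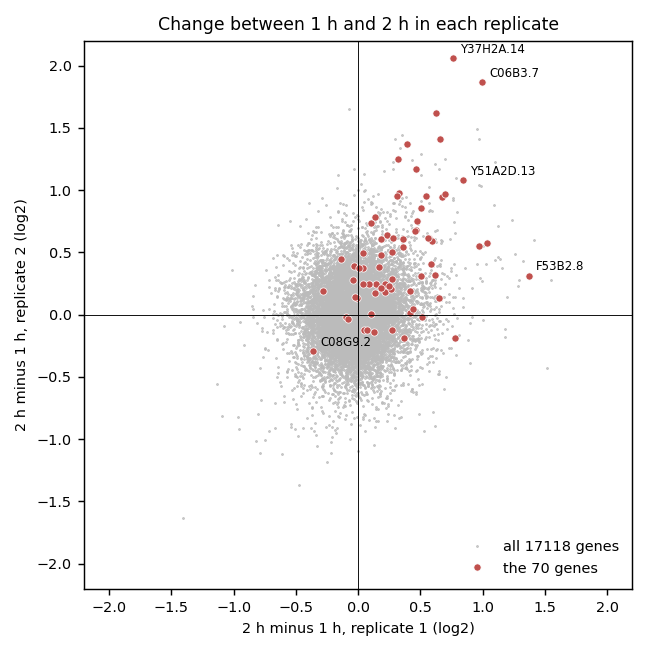
Difference between the 2 h and the 1 h array (log2) of replicate 1 (horizontal) and of replicate 2 (vertical) for the 70 genes (red points) and all 17118 genes (grey points, 1 of which lies beyond the axes). Of the 70 genes, 54 lie above 0 on both axes, and Y37H2A.14 and C06B3.7 stand highest in replicate 2. The share of all genes above 0 on both axes was not counted.

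By the level at 2 h relative to 4 h, the genes fell into 3 groups. In 49 genes the 2 h and 4 h arrays overlapped. In 4 genes, F53B2.8, C06B3.7, C23H4.6 and Y6D1A.2, both 2 h arrays lay above every 4 h array, with a median difference from 0 h of 1.44 at 2 h and 0.79 at 4 h. In 17 genes both 2 h arrays lay below every 4 h array, with medians of 0.34 at 2 h and 0.66 at 4 h. Since the 4 h arrays were chosen to be high and the 2 h arrays were not, the larger size of this last group is not a result.

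F53B2.8 had the most transient course, with log2 signals of 8.24, 8.38, 8.24 and 8.42 at 0 h, 8.84 and 9.61 at 1 h, 10.21 and 9.92 at 2 h and 8.94, 8.95, 8.87 and 8.91 at 4 h. It was 1.74 above 0 h at 2 h and 0.60 at 4 h, and in this gene replicate 1, not 2, was the higher of the 2 h arrays. The only probe set of F53B2.8 has the suffix _s_at, so its oligonucleotides can also bind other transcripts. C06B3.7 had the largest mean difference from 0 h at 2 h, 2.01, through arrays of 5.77 and 7.32. C23H4.6 had 4.92, 4.80, 5.26 and 5.02 at 0 h, 5.08 and 5.60 at 1 h, 6.11 and 6.18 at 2 h and 5.81, 5.89, 6.06 and 5.61 at 4 h. Its direct neighbour cest-3, a carboxylesterase gene, differed by -0.66 between 4 h and 0 h. Y6D1A.2 had 7.78, 7.79, 7.84 and 7.64 at 0 h, 8.31 and 8.30 at 1 h, 8.77 and 8.97 at 2 h and 8.55, 8.50, 8.45 and 8.50 at 4 h, with small spread at every time.

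At the other end, F42A10.7 was the latest of the genes, with log2 signals of 7.16, 6.84, 6.85 and 6.98 at 0 h, 7.04 and 6.63 at 1 h, 6.76 and 6.82 at 2 h and 7.77, 7.94, 7.52 and 7.58 at 4 h. Its 1 h and 2 h arrays lay within or below the 0 h range, and its difference of 0.75 (SE 0.115) appeared between 2 h and 4 h. C08G9.2 was the only other gene with both 2 h arrays no higher than the highest 0 h array, at 2.78, 2.75, 3.16 and 3.27 at 0 h, 3.42 and 3.29 at 1 h, 3.06 and 2.996 at 2 h and 3.56, 3.32, 3.91 and 3.33 at 4 h. Of these 12 values, 11 were under the lower quartile of all values. Its 1 h arrays were above all 0 h arrays. Besides F42A10.7, the smallest mean differences of the 1 h and 2 h arrays from 0 h were those of K07G5.5 (0.076), F23F12.3 (0.088), Y48G1C.5 (0.090) and the pseudogene K09F6.4 (0.094), all of which differed by at least 0.515 at 4 h. F23F12.3 reached 4.09, 4.04, 4.15 and 4.004 at 4 h, against 3.42, 2.69, 3.37 and 3.02 at 0 h, so its 0 h signals were under the lower quartile.

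**Figure D3:**
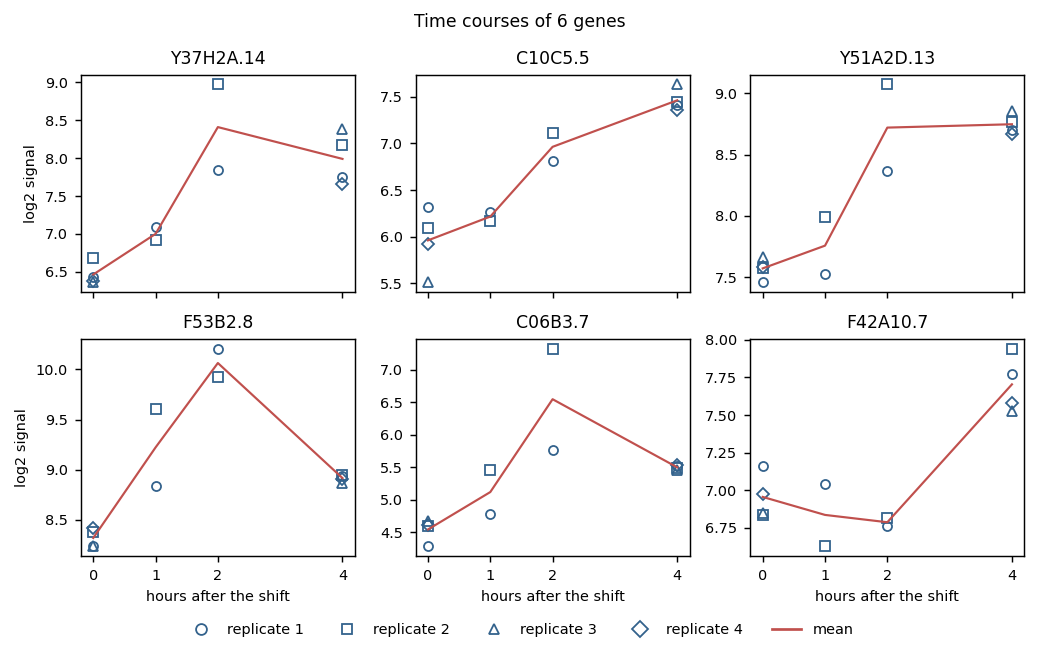
Log2 signal (vertical) against hours after the shift (horizontal) for 6 genes, with a symbol per array by replicate number and a line through the means (n = 4 at 0 h and 4 h, n = 2 at 1 h and 2 h). F53B2.8 and C06B3.7 were highest at 2 h, C10C5.5 climbed to 4 h, and F42A10.7 was above its 0 h arrays at 4 h alone.

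Some of the genes lay side by side. In the order of protein-coding genes and pseudogenes of the gene table, 5 of the 70 had another of them within 2 genes, all as direct neighbours on chromosome IV: C10C5.3, C10C5.4 and C10C5.5, and ZK896.5 and ZK896.4. How often clone-named genes in general lie so close was not counted. Of the 100 measured direct neighbours that were not among the 70, 49 lay above 0 at 4 h, with a median difference of -0.00272. Of these 100, 3 met the thresholds of the rule, where 1.06% of all genes did. The 3 were fbxc-58, an F-box gene, beside C10C5.3; nhr-121, a nuclear hormone receptor gene, beside the pseudogene E02H9.12; and lgmn-1, a legumain-type protease gene, beside T28H10.2. The neighbours of the genes were thus about as often above as below 0, and their share past the thresholds was not tested against that of all genes.

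The 3 aminoacylase-family genes and fbxc-58 formed a run of 4 genes higher at 4 h. C10C5.3 had 6.98, 7.38, 7.12 and 7.003 at 4 h, against 5.86, 6.36, 6.09 and 6.05 at 0 h. C10C5.4 had 8.14, 8.42, 8.42 and 8.25 at 4 h, against 7.78, 7.77, 7.74 and 7.62 at 0 h. fbxc-58 had 5.12, 4.97, 5.33 and 5.44 at 4 h, against 3.78, 3.40, 4.36 and 4.42 at 0 h. As 4 h minus 0 h, the differences along the run were 1.22 for fbxc-58 (SE 0.215), 1.03 for C10C5.3 (SE 0.135), 0.58 for C10C5.4 (SE 0.0868) and 1.501 for C10C5.5 (SE 0.142). On either side, pezo-1, which encodes a PIEZO mechanosensitive channel, stood at 8.05 ± 0.0482 at 4 h and 8.06 ± 0.144 at 0 h, and daf-15, the gene of the Raptor protein of TOR signalling, at 9.999 ± 0.0495 at 4 h and 9.98 ± 0.153 at 0 h (SD, n = 4 each). The gene nssp-45, between C10C5.5 and daf-15, has no single-gene probe set. The courses within the run differed: fbxc-58 was at 5.96 and 5.92 at 2 h, above all its 4 h arrays, C10C5.3 overlapped between 2 h (6.95 and 7.47) and 4 h, and C10C5.5 was still below its 4 h arrays at 2 h. The probe set of C10C5.4 has the suffix _s_at, and whether probe sets of these related genes bind each other's transcripts was not tested.

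ZK896.5 had log2 signals of 5.49, 5.003, 5.30 and 5.49 at 0 h, 5.53 and 5.69 at 1 h, 5.93 and 7.06 at 2 h and 6.22, 6.49, 6.11 and 6.34 at 4 h. Its neighbour ZK896.4 had 5.03, 5.26, 5.21 and 5.64 at 0 h, 5.46 and 5.55 at 1 h, 5.64 and 5.76 at 2 h and 5.77, 5.81, 5.88 and 6.19 at 4 h. Both were separated at 4 h, by 0.97 and 0.63, and the array of 2 h replicate 2 was the highest of all 12 for ZK896.5 but not for ZK896.4. The second probe set of ZK896.5 differed by 0.79. Of the other 6 measured genes of the clone ZK896, clec-186 and clec-187, C-type lectin genes, differed by 0.09 and 0.07, the guanylyl cyclase gene gcy-18 by 0.03, nstp-5 by 0.05, ZK896.1 by 0.06 and the pseudogene ZK896.3 by -0.07. The clone E02H9 held 2 of the 70 genes that are not close neighbours. E02H9.9 had 6.80, 6.51, 6.34 and 6.37 at 4 h, against 5.61, 5.73, 5.58 and 5.49 at 0 h. E02H9.12 had 6.40, 6.76, 6.32 and 5.99 at 4 h, against 5.76, 5.91, 5.39 and 5.84 at 0 h, from a probe set with the suffix _x_at, its only one. Of the other 6 measured genes of that clone, nhr-121 differed by 0.51, klo-2 by 0.05, E02H9.1 by -0.02, E02H9.2 by -0.05, E02H9.6 by -0.22 and E02H9.7 by -0.48, the last with all 4 h arrays below all 0 h arrays.

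**Figure D4:**
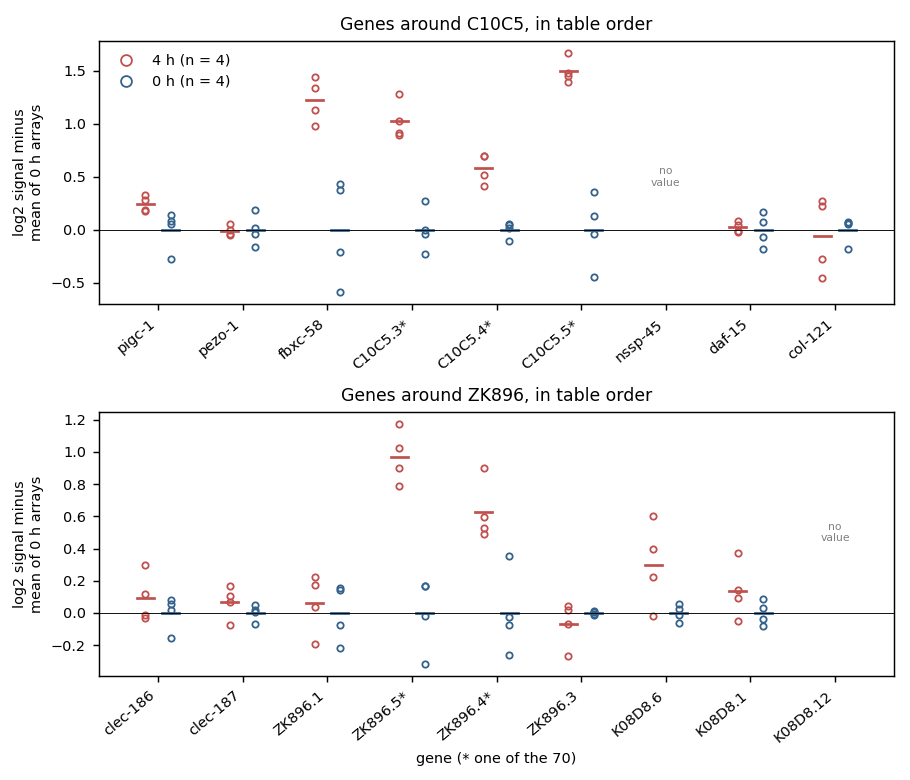
Log2 signal minus the mean of the gene's 0 h arrays (vertical) for the genes around C10C5 (top) and ZK896 (bottom) in the order of the gene table (horizontal), with each 4 h array in red left of each 0 h array in blue and a bar at each mean (n = 4 each). Asterisks mark genes of the 70, and the raised genes sit between neighbours such as pezo-1 and daf-15 whose 4 h and 0 h arrays overlap. Beyond pezo-1, the 4 h arrays of pigc-1 all lie above its 0 h arrays, with a difference between the means of 0.24.

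For 10 of the 70 genes the array carries a further probe set, 11 in all, which reads the same RNA with other oligonucleotides and so checks the probe, not the replicates. Of these, 9 were separated upward and 6 also met the minimum, and their median difference between 4 h and 0 h was 0.75. The other probe set of Y6D1A.2 (0.33), that of T14B4.19 (0.49) and the _s_at probe set of F23F12.3 (0.48) were separated but under the minimum. Those of Y32F6A.4 and F09F7.5 were not separated. For Y32F6A.4 the second probe set changed by -0.01, with means of 4.55 at 4 h and 4.56 at 0 h, against 1.13 for the one used here. For F09F7.5 it changed by -0.02, but at means of 1.97 at 4 h and 1.99 at 0 h, far under the lower quartile of the arrays, against 0.69. In the other direction, the brighter probe set of Y48G1C.5, used here, gave 0.52 and the other 0.84.

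**Figure D5:**
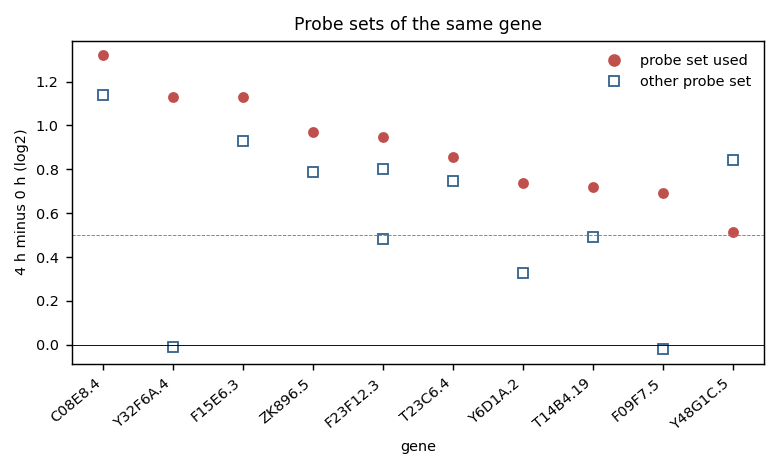
Difference between 4 h and 0 h (log2, vertical) of the probe set used (filled red circles) and of the other probe sets (open blue squares) for the 10 genes with more than 1 (horizontal), with a dashed line at the minimum of 0.5. The other probe sets of Y32F6A.4 and F09F7.5 lie at 0, and the remaining 9 lie between 0.33 and 1.14.

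The 38 genes that the naming rule did not pick differed by less than the 20 largest, from 0.52 to 0.86 log2 units between 4 h and 0 h, with a median of 0.64. Their median difference from 0 h was 0.24 at 1 h and 0.54 at 2 h. Both 1 h arrays were above every 0 h array in 15 of them, both 2 h arrays were in 31, and both 2 h arrays exceeded both 1 h arrays in 21. The same held, in turn, for 6.48%, 10.0% and 15.9% of all genes. A few are given here that were picked after their values were seen. C17H12.6 had the largest step between 1 h and 2 h of the 38, with 3.77, 3.90, 4.005 and 4.14 at 0 h, 3.85 and 3.97 at 1 h, 4.50 and 5.38 at 2 h and 4.73, 4.27, 4.58 and 5.25 at 4 h, and its 1 h arrays lay within the 0 h range. B0507.3 was at its later level by 1 h, with 3.49, 3.66, 3.77 and 3.52 at 0 h, 4.06 and 4.43 at 1 h, 4.11 and 4.30 at 2 h and 4.14, 4.36, 4.57 and 4.12 at 4 h. C52B11.5 had little spread within a time, with 7.98, 8.10, 7.96 and 8.06 at 0 h, 8.36 and 8.57 at 1 h, 8.58 and 8.81 at 2 h and 8.79, 8.74, 8.93 and 8.75 at 4 h, and was above its 0 h arrays from 1 h on. Y87G2A.2, in contrast, reached only 9.28 and 9.18 at 1 h, against 9.18, 9.27, 9.13 and 9.09 at 0 h, and stood at 9.55 and 9.68 at 2 h and 9.72, 9.85, 9.81 and 9.48 at 4 h.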

How the data were processed

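Biotin-labelled RNA was hybridised to Affymetrix arrays, 1 sample per array, per the labels' protocols. The authors deposited a log2 signal for each probe set, for which the submitters' processing notes name RMA; the base of the logarithm was taken from the range of the values (1.508 to 14.36), and scanner files were not used here. Probe sets took their gene from the platform annotation: of 22548, 20766 had 1 symbol, 887 several and 895 none. Gene names, biotypes and gene order came from the WBcel235 gene table, and sequences were not used here.

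Differences and standard errors came from a linear model over all 12 arrays and all probe sets (limma 3.58.1 in R 4.3.3, eBayes, Benjamini-Hochberg adjustment, threshold 0.05), which was tested on simulated data. The 4 h and 0 h arrays chose the 70 genes, so for them only 2 h against 1 h was tested (for marker genes also 4 h against 0 h), and the 0 h and 4 h arrays entered that fit only through the estimate of the spread. The rule favours genes with a small spread in those arrays, so the p-values of the 70 genes are not free of the choice. The genes named were the 20 largest differences, the 5 largest and 5 smallest mean differences of 1 h and 2 h from 0 h, the 3 smallest p-values of 2 h against 1 h, genes whose probe sets disagreed, neighbours, and those next to the minimum difference of 0.5. The genes, lists and rules were chosen with earlier results of these data known. Same-numbered arrays of 4 h and 0 h shared part of their deviations from the group means (correlation 0.169 to 0.314 in 4 pairs, against -0.29 to 0.147 in 12 others). The main fit, with its standard errors and p-values, ignored the number, which entered as a block in an alternative. Whether numbers also pair the 1 h and 2 h arrays with those of 0 h was not tested, and the labels do not say. Array number limits the precision, above all at 1 h and 2 h, with 2 arrays each. Alternatives were the minimum difference, probe set choice, dim probe sets, scaling, a replicate block and leaving out each array.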

Additional observations from a re-analysis of the deposited data

Results flagged for a closer look

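In 7 of the 140 sets of 4 arrays (70 genes at 0 h and at 4 h), 1 array stood far from the other three, where chance gives about 1 in 20 sets. At 4 h, the highest array stood apart for C49G7.12 (replicate 3, log2 signal 4.81), F14F9.4 (replicate 2, 4.64) and R07B7.6 (replicate 4, 5.57). At 0 h, the lowest array stood apart for K05B2.4 (replicate 1, 3.43), C49G7.12 (replicate 1, 3.37) and T22C8.3 (replicate 3, 5.40), and the highest for D2021.4 (replicate 2, 5.67). C49G7.12 was the one gene with such an array at both times, in different replicates.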

How the results depend on the processing

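The number of clone-named genes raised at 4 h followed the thresholds: it was 110 with a minimum difference of 0.4, 29 with 0.75, 14 with 1, and 39 without the dimmer 50% of probe sets. It was 69 to 73 under quantile normalization, centred arrays or the mean of a gene's probe sets, 60 without probe sets of suffix _s_at or _x_at, and 68 to 80 with 1 array left out. With the replicate number as a block (all same-numbered differences above 0, mean at least 0.5) it was 77. The count of genes past the limma threshold at 2 h against 1 h was 0 in every setting except 2 that left out an array, with a range of 0 to 5 (the 5 among 24 probe sets called in all without replicate 1 at 2 h, and 1 of 1 without replicate 2 at 1 h); with the replicate block it was 0 (lowest adjusted p = 0.126). The lowest adjusted p of the 70 genes ranged from 0.00621 to 0.9995 over the settings in limma. At an unadjusted limma p under 0.05, a count added after seeing the data, 34 of 70 genes passed with the replicate block. Without the dimmer probe sets 19 of the 39 genes kept passed, and with 1 array left out 15 to 36 of 70 did. At the ends of that range, without replicate 2 or replicate 1 at 2 h, 2.19% and 4.57% of all genes were higher. The shares of all genes with the block and without the dimmer probe sets were not counted. The 34 and the 19 therefore cannot be set against a background. With 1 array left out the median difference was 0.68 to 0.73 for 4 h against 0 h, 0.47 to 0.77 for 2 h against 0 h, 0.18 to 0.34 for 1 h against 0 h and 0.20 to 0.47 for 2 h against 1 h; within replicate numbers 1 and 2 it was 0.65 for 2 h and 0.32 for 1 h against 0 h. Of 770 recomputed differences of single genes, 0 changed sign and 4 moved by more than the spread, all with the mean of a gene's probe sets: Y32F6A.4 (0.56), Y6D1A.2 (0.53), F09F7.5 (0.34) and Y48G1C.5 (0.68). The cause was not tested. Signal over background could not be assessed, which limits what the dim genes show.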

Other observations

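A few probe sets outside the gene list also met the thresholds, where 1.06% of all genes did. Of 526 probe sets shared by several genes with at least 1 clone-style name, 1 met the thresholds, that of Y27F2A.6 and F22E5.1, with a difference between 4 h and 0 h of 0.51 and between 2 h and 0 h of -0.08. Of the 895 probe sets without a gene, 2 met them, with differences between 4 h and 0 h of 0.62 and 0.58. For 4 further clone-named genes a dimmer probe set met the thresholds while the brighter one did not: K02D10.4 (0.80 against 0.33), T12G3.2 (0.61 against 0.42), F53C11.1 (0.56 against 0.47) and F14B4.1 (0.53 against 0.23).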
